A study of Mus musculus with 18 samples.

Results

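The genes described here encode the machinery that copies DNA, from the proteins that mark replication origins to the enzymes that supply nucleotides and reassemble chromatin. The list named 52 mouse genes by symbol and set no threshold on the measured values, but it was chosen with earlier results of these data known. Of these, 46 had a probe set, the set of short probes by which the array reads 1 transcript, assigned to exactly 1 gene on the array, out of 8251 genes so represented in the whole series. Orc3, Gins1, Gins3, Gins4 and Pole had no probe set there. Tyms had 2 probe sets, both shared with a pseudogene, and was left out.

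The cells were G1E-ER4, 1 clone of a mouse erythroid line derived from embryonic stem cells whose Gata-1 gene had been disrupted, carrying Gata-1 joined to the estradiol-binding domain of the estrogen receptor (Gata-1-ER). Every sample, the 0 h samples included, therefore lacked the cells' own Gata-1 and carried the fusion, which estradiol switches on. Total RNA was taken before estradiol (0 h) and after 3, 7, 14, 21 and 30 h, a course that the submitters place between the late BFU-E, an early committed progenitor, and the orthochromatic erythroblast, the last nucleated stage. There were 3 biological replicates at each time, lettered A, B and C, and 18 Affymetrix MG-U74Av2 arrays in all. The labels do not say whether the replicates were separate cultures, so the p values measure the spread between these samples. No cells kept without estradiol for the same hours, and no estradiol-treated cells without the fusion, were analysed here, so hours in culture, estradiol itself and Gata-1-ER activity cannot be told apart.

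Copying the genome begins when the origin recognition complex (ORC) marks an origin and, with Cdc6 and Cdt1, loads the ring-shaped MCM helicase onto DNA during G1. In S phase the kinase Cdc7-Dbf4 and the factors Cdc45, GINS and Mcm10 turn the loaded ring into a moving helicase, primase and the DNA polymerases synthesize new strands, and the sliding clamp PCNA holds the polymerases in place. Erythroid progenitors divide several times while they mature and then leave the cell cycle before the nucleus is lost.

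Values are signal intensities on the linear scale deposited by the authors, 1 for each probe set and array, and groups of 3 signals are always given in the order A, B, C. Because every array had been scaled to nearly the same mean (trimmed means 150.094 to 150.124), a signal is relative to all transcripts on that array. Log2 changes are differences between times of log2(signal + 16), with the standard error (SE) of the limma model and n = 3 arrays at each time. A member was called, and is said here to have risen or fallen, when its limma p value, adjusted by the Benjamini-Hochberg method over the 12422 probe sets tested, was below 0.05. The added 16 makes fold changes of dim probe sets smaller than they would be without it. The signal of 1 probe set cannot be compared with that of another as an amount of RNA. Each later time is compared with the same 3 arrays at 0 h, so the 5 comparisons with 0 h share their controls.

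RefSeq promoter windows on mouse build GRCm38.p6, from 250 bases before to 50 bases after the start of the gene, were found for 41 of the 46 measured members, all but Rfc2, Gins2, Gmnn, Prim2 and Mcm4. They were searched on both strands for the 8 letters TTTCCCGC, TTTCGCGC, TTTGCCGC or TTTGGCGC, forms of the sequence bound by E2F factors, which regulate many genes of the G1 to S transition. These letters were in the windows of 13 of the 41 members (31.7%) and in 704 of 27025 genes of the table (2.6%). A gene counts here if any of its windows holds the letters, and some members have several. The 27025 genes were not limited to those on the array. They were not matched to the members in base composition or number of windows, for these letters or those below. Of the 13, Mcm6 was too dim for its level to be followed, and the other 12 fell at 30 h. Of all 41 members with a window, 33 fell at 30 h, and 12 of these 33 (36.4%) held the letters. Of the 8 that were not called at 30 h, 1 held them. A link between the letters and the fall was not tested. The letters CCAAT were in windows of 24 of the 41 members (58.5%), against 41.1% of all genes. AGATAA or TGATAA, letters of the GATA recognition sequence, were in 4 (9.8%), against 21.0% of all genes. These matches describe letters only and show no binding.

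The 250 bases before the start are printed for 4 members that the results turn on: Cdc6, called higher at 4 of the 5 later times, Mcm5 and Pola1, which fell at 21 h and 30 h, and Pole3, a polymerase subunit that was called at no time. Capitals mark the E2F letters, which read as their reverse complement where they lie on the opposite strand. Cdc6 and Pola1 each hold 1 match on the opposite strand, Mcm5 holds 2 that overlap, 1 on each strand, and Pole3 holds none in these bases. Most members that fell at 30 h hold none in their windows either, so these 4 genes do not stand for the list. Positions are chr11:98907901-98908150 on the plus strand for Cdc6, chr8:75109259-75109508 on the plus strand for Mcm5, chrX:93632156-93632405 on the minus strand for Pola1 and chr4:62525015-62525264 on the minus strand for Pole3.
Cdc6: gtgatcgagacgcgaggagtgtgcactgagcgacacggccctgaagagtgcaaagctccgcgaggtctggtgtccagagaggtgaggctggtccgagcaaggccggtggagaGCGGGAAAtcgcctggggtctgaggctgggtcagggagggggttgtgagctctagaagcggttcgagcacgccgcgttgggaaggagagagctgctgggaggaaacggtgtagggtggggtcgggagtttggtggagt
Mcm5: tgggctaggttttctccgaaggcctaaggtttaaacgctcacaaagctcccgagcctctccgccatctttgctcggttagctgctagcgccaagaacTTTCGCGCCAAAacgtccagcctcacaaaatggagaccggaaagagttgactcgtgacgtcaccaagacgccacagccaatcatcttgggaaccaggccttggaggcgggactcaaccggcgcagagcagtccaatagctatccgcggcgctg
Pola1: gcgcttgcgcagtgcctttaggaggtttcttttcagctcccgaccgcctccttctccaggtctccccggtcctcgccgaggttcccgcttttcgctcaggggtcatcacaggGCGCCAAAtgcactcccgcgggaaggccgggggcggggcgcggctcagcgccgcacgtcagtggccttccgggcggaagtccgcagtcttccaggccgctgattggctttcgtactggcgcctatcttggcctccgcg
Pole3: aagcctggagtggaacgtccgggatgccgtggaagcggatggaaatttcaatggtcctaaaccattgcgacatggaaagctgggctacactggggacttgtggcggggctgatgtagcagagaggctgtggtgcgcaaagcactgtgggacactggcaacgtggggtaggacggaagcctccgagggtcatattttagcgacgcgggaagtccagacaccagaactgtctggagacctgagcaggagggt

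The erythroid identity of the cells was checked with 9 measured marker genes of the red cell lineage, among them globins, heme synthesis and red cell membrane genes. Their summed signal was 10796 to 13283 at 0 h and 57066 to 69093 at 30 h. Hba-a1, an alpha globin, carried much of that sum, with a mean of 26549 at 30 h, while Epb42, a membrane skeleton protein, had means of 22.7 and 19.9 at 0 and 30 h, and Epor, the erythropoietin receptor, 584 and 574. Other lineages are given by the range of their own sums at 0 h and then at 30 h. These were 131 to 165.0 and 191 to 215 for 6 mast cell and basophil genes, 215 to 299 and 244 to 399 for 9 neutrophil and macrophage genes, 107 to 154 and 117 to 185 for 5 lymphocyte genes and 587 to 693 and 744 to 1008 for 7 fibroblast genes. For 4 megakaryocyte genes the sums were 87.2 to 104.9 at 0 h, 147 to 221 at 14 h, 133 to 200 at 21 h and 88.1 to 93.8 at 30 h. Their Gp9, a platelet membrane glycoprotein, had means of 30.8, 118, 99.3 and 25.1 at these times. The part of these cell types in the results was not tested.

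Array A was most often the lowest of the 3 arrays for the replication genes at every time. It was the lowest for 25, 24 and 19 of the 46 members at 0, 3 and 7 h, and for 36, 34 and 29 at 14, 21 and 30 h. Of all probe sets, 29.1%, 33.3%, 30.3%, 27.7%, 27.4% and 30.8% were lowest there at the 6 times. The median member on array A lay -0.13, -0.13 and -0.02 log2 units from the mean of the other 2 arrays at 0, 3 and 7 h and -0.31, -0.47 and -0.27 at 14, 21 and 30 h, and the median of all probe sets -0.01 or nearer to 0 each time. At 21 h, Slc4a1, the bicarbonate transporter of mature red cells, read 1348, 3586 and 2985 on arrays A, B and C, whereas Alas2, the first enzyme of erythroid heme synthesis, read 7116, 7005 and 7430. The part of the low array A in the results was not tested, and counts without the 14, 21 and 30 h arrays of that letter are given below.

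**Figure D1:**
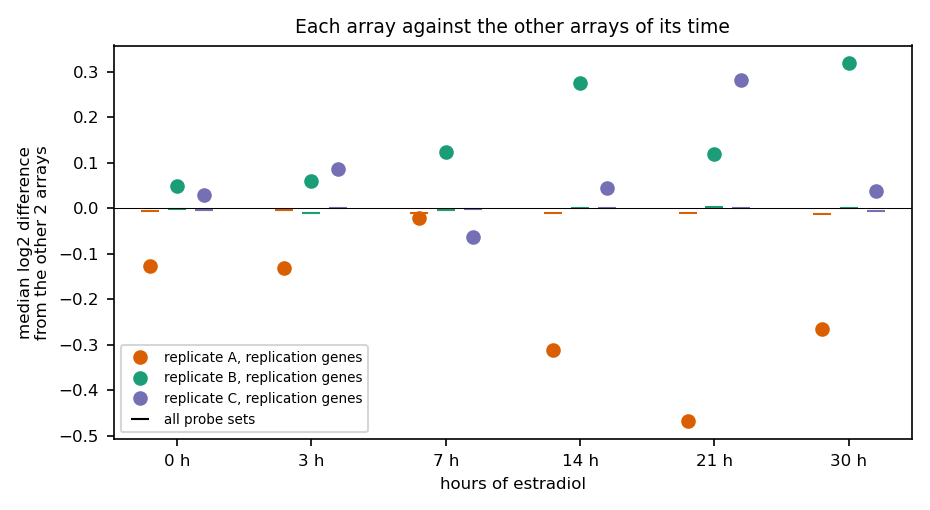
Median log2 difference of each array from the mean of the other 2 arrays of its time (y axis), by hours of estradiol (x axis). Circles are the 46 replication genes and short bars all probe sets, coloured by replicate letter. Array A lies at -0.13, -0.13 and -0.02 for the replication genes at 0, 3 and 7 h and at -0.31, -0.47 and -0.27 at 14, 21 and 30 h, while all probe sets lie near 0 on every array.

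Few replication genes were called in the first 14 h of estradiol, and most fell between 14 h and 30 h. At 3 h, 1 of the 46 members was called, Cdc6, which rose (2.17% of members, against 1.06% of all probe sets called and 0.757% called higher), and at 7 h again only Cdc6 was called, higher (4.17% of all probe sets, 2.48% higher). At 14 h, 5 were called, where 13.3% of all probe sets were, 6.55% higher and 6.77% lower: Cdc6, Fen1, Rfc2 and Rnaseh2a rose and Pold2 fell. At 21 h, 28 were called, 2 higher and 26 lower, against 20.7% of all probe sets called, 9.75% higher and 10.9% lower. At 30 h, 37 of 46 were called, all lower (80.4%, against 26.7% of all probe sets called, 12.8% higher and 13.8% lower). The shares of all probe sets, here and below, are not matched to the members for signal. Only 2 of the 46 members had a mean in the lowest 33.3% of probe sets, where a change is harder to call. A signal is relative to all transcripts on its array. A lower one can mean fewer cells that were replicating, less of each RNA per cell or more of other transcripts. These cannot be told apart here.

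The median log2 change of the 46 members was 0.11, -0.07 and -0.03 at 3, 7 and 14 h, then -0.68 and -1.62 at 21 and 30 h, where that of all probe sets was between -0.004 and 0.050. Of the 37 that fell at 30 h, 32 fell at least 2-fold, 21 at least 4-fold and 6 at least 8-fold on the (signal + 16) scale. All 3 arrays at 30 h read below all 3 at 0 h for 38 of the 46 members, as for 18.6% of all probe sets, and all 3 read above for 1, Top1, as for 18.9% of all probe sets. The 3 h arrays all read above those at 0 h for 10 members (6.68% of all probe sets) and below for 1 (8.85%). The 7 h arrays all read above for 5 (9.4%) and below for 10 (9.87%), though only Cdc6 was called at these times. The 22 members with their highest mean at 3 h and the 14 with it at 14 h outnumbered the 8 highest at 0 h and the 2 highest at 7 h. For 38 members the lowest mean was at 30 h.

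Neighbouring times place the fall. From 3 h to 7 h only Cdc6 was called, higher (1.06% of all probe sets, 0.733% higher), and from 7 h to 14 h only Rnaseh2a, higher (2.33%, 1.26% higher). From 14 h to 21 h, 15 of 46 fell (2.32% of all probe sets called, 1.38% lower), with a median change of -0.71, and from 21 h to 30 h, 27 fell (4.98% called, 3.12% lower), with a median of -1.02. Of the 38 members called against 0 h at any time, 1 was first called at 3 h, 4 were at 14 h, 24 at 21 h and the other 9 by 30 h. With the 14, 21 and 30 h arrays of letter A left out together, a fit chosen after seeing the data, 2, 3 and 7 members were called at 3, 7 and 14 h, 23 at 21 h (2 higher and 21 lower), 35, all lower, at 30 h, 16 from 14 h to 21 h and 28 from 21 h to 30 h. Without the 21 h array A alone, the count from 14 h to 21 h was 8, as it was without the 14 h array B or C.

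**Figure D2:**
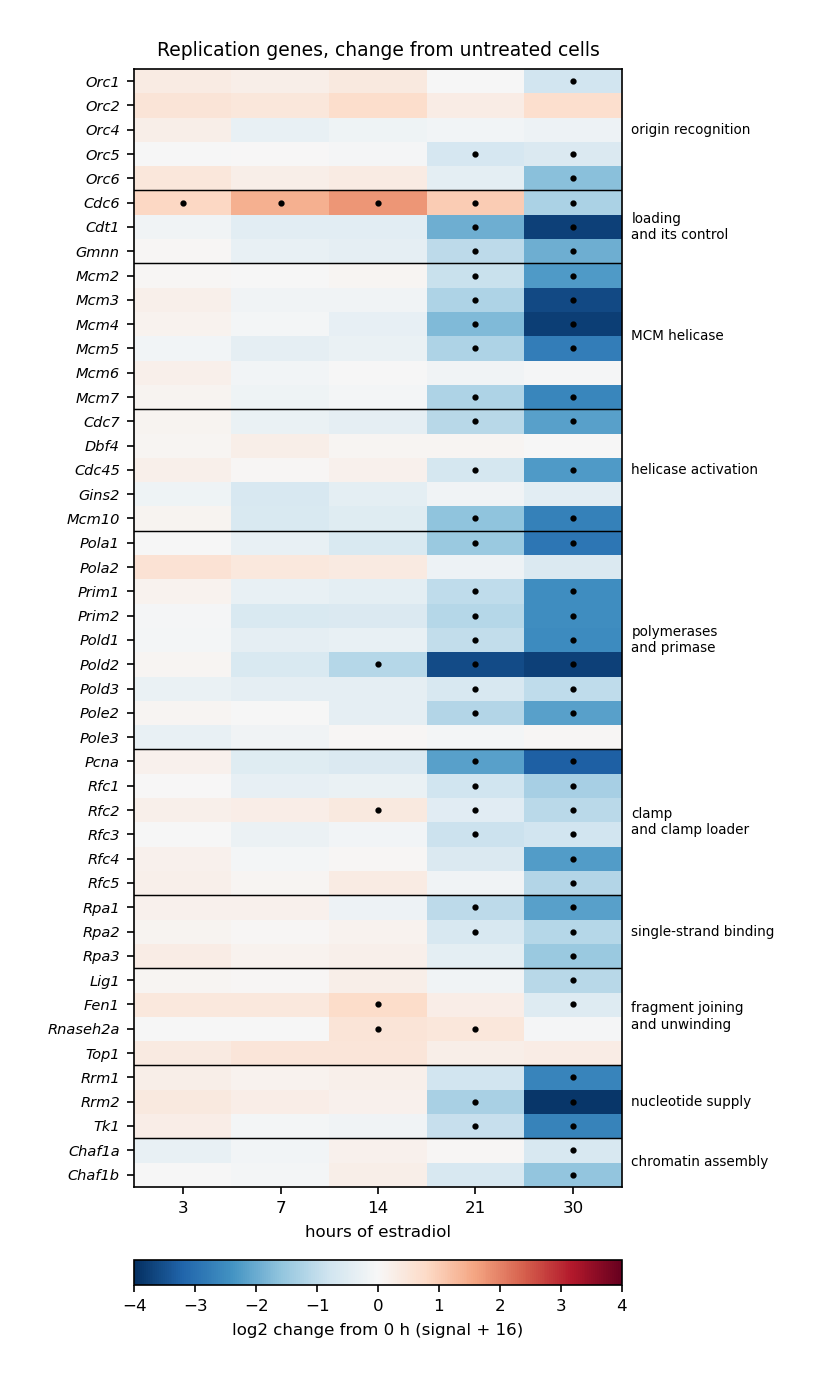
Log2 change in signal + 16 from 0 h (colour, from -4 in blue to 4 in red) of the 46 measured replication genes (rows, by role) at 3, 7, 14, 21 and 30 h of estradiol (columns). A dot marks an adjusted p below 0.05. Cdc6 is the one row with dots in every column, and 37 of 46 rows are blue with a dot at 30 h.

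Of the 5 measured subunits of the origin recognition complex, 3 fell at 30 h (median -0.58). Orc6, a small subunit, read 815, 768 and 734 before estradiol, 987, 1143 and 1039 after 3 h, 832, 955 and 903 after 7 h, 665, 1159.8 and 1160.2 after 14 h, 419.5, 737 and 681 after 21 h, and 189, 240.0 and 248 after 30 h. The 30 h arrays lay below all 0 h arrays and the 3 h arrays above them. Its change was -1.67 (SE 0.19, adjusted p = 1.03e-06) at 30 h, and at 3 h it was 0.45 (SE 0.19, adjusted p = 0.506), which did not pass. Orc5 read 266, 288 and 375 before estradiol, 277, 296 and 282 after 14 h, 149, 166 and 224 after 21 h, and 187, 223 and 152 after 30 h. Its 21 h and 30 h arrays lay below all 0 h arrays, and the changes were -0.66 (SE 0.18, adjusted p = 0.0109) and -0.58 (SE 0.18, adjusted p = 0.0203). Both calls were lost without the 0 h array C (adjusted p 0.0752 and 0.121) and with the mean of both Orc5 probe sets (0.299 and 0.446). Orc1, the largest subunit, read 56.0, 75.6 and 90.9 before estradiol, 80.6, 124 and 96.3 after 14 h, and 28.7, 28.2 and 51.2 after 30 h, with a change at 30 h of -0.76 (SE 0.27, adjusted p = 0.044) that failed under 14 of 30 alternatives. Orc2 and Orc4 were called at no time, with 30 h changes of 0.68 and -0.21. Orc2 passed, higher, under 2 of 30 alternatives at 30 h and under 1 at 14 h.

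All 3 measured genes of helicase loading fell at 30 h (median -1.94), but Cdc6 rose first. Cdc6, an ATPase that joins ORC to load the helicase, read 457, 529.8 and 497 before estradiol, 815, 879 and 899 after 3 h, 1175, 1385 and 1339.7 after 7 h, 1426, 1795 and 1779 after 14 h, 908, 1106 and 1079 after 21 h, and 160.1, 207 and 188 after 30 h. All 3 arrays at 3, 7, 14 and 21 h lay above all 3 at 0 h, and those at 30 h lay below. The log2 changes were 0.82 (SE 0.11, adjusted p = 0.000337) at 3 h, 1.44 (SE 0.11, adjusted p = 1.54e-07) at 7 h, 1.76 (SE 0.11, adjusted p = 3.09e-09) at 14 h, 1.03 (SE 0.11, adjusted p = 1.18e-06) at 21 h and -1.27 (SE 0.11, adjusted p = 4.45e-08) at 30 h. The rise from 3 h to 7 h was 0.61 (SE 0.11, adjusted p = 0.00983), a call lost under 5 of 30 alternatives, among them without the 3 h array A or the 7 h array B, and the change from 21 h to 30 h was -2.29 (SE 0.11, adjusted p = 5.54e-10).

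Cdt1, which brings the helicase to the origin, read 1013, 1178 and 1229 before estradiol, 989, 1058 and 1124 after 3 h, 811, 938 and 839 after 7 h, 631, 1020.5 and 1023 after 14 h, 219.6, 361 and 297 after 21 h, and 59.6, 60.0 and 100.5 after 30 h. Its 21 h arrays were all below its 14 h arrays, and its 30 h arrays were lower again. The changes were -0.42 (SE 0.19, adjusted p = 0.175) at 14 h, not called, -1.94 (SE 0.19, adjusted p = 2.2e-07) at 21 h and -3.72 (SE 0.19, adjusted p = 1.86e-11) at 30 h. Its other probe set, of a less certain kind, changed by -3.44 at 30 h. Gmnn (geminin), the inhibitor that binds Cdt1 after origins have fired, read 337, 359 and 436 before estradiol, 245, 323 and 288 after 14 h, 126, 190.0 and 184 after 21 h, and 70.3, 120.0 and 62.3 after 30 h, with changes of -1.06 (SE 0.23, adjusted p = 0.00206) at 21 h and -1.94 (SE 0.23, adjusted p = 1.95e-06) at 30 h.

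The log2 ratio of Cdc6 to Cdt1 signal + 16 was -1.25 ± 0.09 before estradiol (SD, n = 3). After 3 h it was -0.29 ± 0.03, after 7 h 0.60 ± 0.06, after 14 h 0.93 ± 0.21, after 21 h 1.73 ± 0.26 and after 30 h 1.21 ± 0.33. Only its change over time can be read, since the ratio joins 2 probe sets. It is formed from the Cdc6 and Cdt1 signals given above, so it is no separate support for their changes. At every later time all 3 arrays had a higher ratio than all 3 at 0 h, and the exact two-sided permutation p was 0.1 each time, the smallest that 3 against 3 arrays allow.

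**Figure D3:**
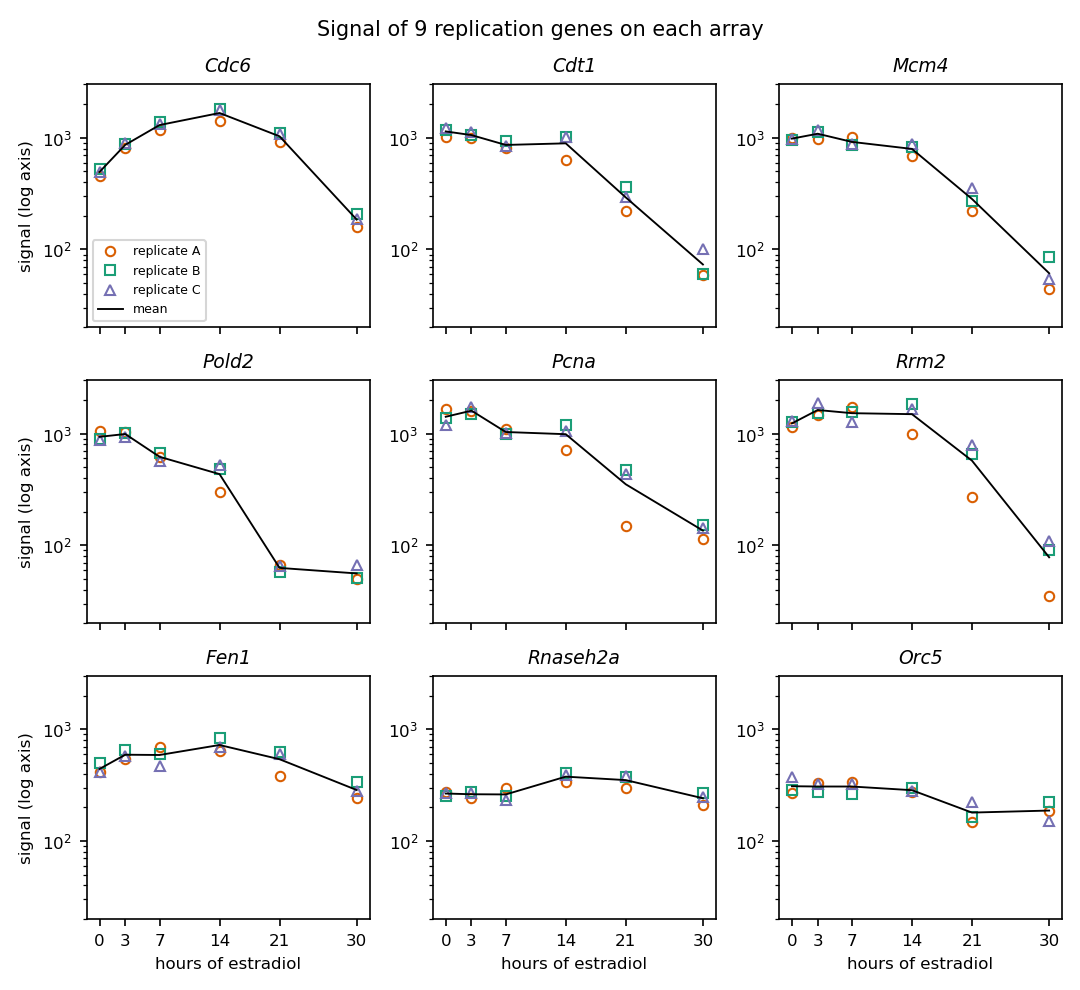
Signal of Cdc6, Cdt1, Mcm4, Pold2, Pcna, Rrm2, Fen1, Rnaseh2a and Orc5 on each of the 18 arrays (y axis, log scale) by hours of estradiol (x axis). Symbols are replicates A, B and C, and the line joins the means of 3 arrays. Cdc6 climbs from a mean of 494 at 0 h to 1667 at 14 h before it falls to 185 at 30 h, while Pold2 falls from 433 at 14 h to 62.7 at 21 h.

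Among the 6 MCM subunits, which form the ring of the helicase, 5 fell at both 21 h and 30 h, and the median change was -1.23 and then -2.69. Mcm4 read 999, 965 and 984 before estradiol, 972, 1125 and 1165 after 3 h, 1021, 854 and 880.1 after 7 h, 680.2, 822 and 883 after 14 h, 222, 271 and 357 after 21 h, and 44.3, 85.2 and 54.2 after 30 h. Its 21 h arrays lay under every earlier array and its 30 h arrays under those. The change was -1.77 (SE 0.20, adjusted p = 1.32e-06) at 21 h and -3.76 (SE 0.20, adjusted p = 3.08e-11), a 13.6-fold fall, at 30 h. Mcm7 read 1331, 1624 and 1432 before estradiol, 1289.6, 1565 and 1485 after 14 h, 508, 641 and 822 after 21 h, and 214, 276 and 199.6 after 30 h, changing by -1.25 (SE 0.15, adjusted p = 3.78e-06) and -2.61 (SE 0.15, adjusted p = 1.35e-10). Mcm3 read 1464, 1784 and 1779 before estradiol, 1399, 1608 and 1734 after 14 h, 573, 811 and 932 after 21 h, and 63.4, 166 and 181 after 30 h, and its 30 h change was -3.62 (SE 0.24, adjusted p = 8.09e-10). That probe set is of a kind that may read several transcripts, and the other one for Mcm3 changed by -3.07.

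Mcm5 and Mcm2 fell too, with log2 changes of -2.77 and -2.25 at 30 h. A second, dimmer Mcm5 probe set of an uncertain kind went the other way, from a mean of 17.8 at 0 h to 63.3 at 30 h (log2 change 1.28, adjusted p = 0.0174). With the mean of both, Mcm5 was not called at 21 h (adjusted p 0.5). The 21 h call of Mcm2 was lost under 3 of 30 alternatives. Mcm6 was read near the bottom of the array, with all 18 signals between 2.2 and 32.6, and its level could not be followed at that signal. The same holds for Dbf4, the regulatory partner of the Cdc7 kinase, whose signals were all between 0.7 and 12.7.

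Of the 5 measured activators of the helicase, 3 fell at 21 h and at 30 h (median -2.18 at 30 h). Cdc45, a component of the moving helicase, read 351, 449.8 and 404 before estradiol, 495, 474 and 424 after 3 h, 289, 440.3 and 528 after 7 h, 310.3, 508 and 556 after 14 h, 187, 266 and 236 after 21 h, and 63.1, 74.4 and 61.3 after 30 h. The 14 h arrays spanned those at 0 h, and all 3 at 30 h lay below every earlier array. Its change was -0.70 (SE 0.22, adjusted p = 0.0295) at 21 h and -2.28 (SE 0.22, adjusted p = 1.38e-07) at 30 h. The 21 h call was lost under 6 of 30 alternatives, with adjusted p values up to 0.136 without the 21 h array A. Mcm10, which helps the helicase start, read 212, 216 and 165 before estradiol, 159, 115 and 95.6 after 7 h, 121, 138 and 141 after 14 h, 37.4, 45.0 and 78.9 after 21 h, and 6.0, 18.3 and 28.2 after 30 h. It had changed by -1.60 (SE 0.28, adjusted p = 0.000251) at 21 h and -2.70 (SE 0.28, adjusted p = 3.3e-07) at 30 h. Cdc7 read 88.6, 133 and 124 before estradiol, 72.9, 102 and 77.3 after 14 h, 42.9, 35.9 and 47.3 after 21 h, and 4.1, 10.2 and 25.6 after 30 h, with a 30 h change of -2.18 (SE 0.30, adjusted p = 9.62e-06). The 30 h means of Mcm10 and Cdc7, 17.5 and 13.3, lay under 18.4, the signal that bounds the lowest 33.3% of probe sets, so the sizes of their falls are uncertain. Gins2, a GINS subunit, was dim (2.6 to 43.9 over the 18 arrays) and was not called.

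Of 9 measured subunits of the polymerases and primase, 1 had fallen at 14 h, 7 at 21 h and 7 at 30 h (median -2.47 at 30 h). Pold2, a subunit of polymerase delta, the enzyme of the lagging strand, read 1044, 889 and 872 before estradiol, 1034, 1009 and 931 after 3 h, 613, 677 and 569 after 7 h, 298, 479.8 and 522 after 14 h, 65.9, 57.1 and 65.0 after 21 h, and 49.8, 50.9 and 67.0 after 30 h. Its arrays at 7 h were already below all at 0 h and those at 21 h lay between 57.1 and 65.9. The changes were -0.60 (SE 0.17, adjusted p = 0.0533) at 7 h, not called, -1.15 (SE 0.17, adjusted p = 9.29e-05) at 14 h, -3.59 (SE 0.17, adjusted p = 2.03e-11) at 21 h and -3.74 (SE 0.17, adjusted p = 5.72e-12) at 30 h. At 21 h, 96.0% of its 30 h log2 change was present, where Mcm4 had 47.0%, Cdt1 52.2% and Rrm2 33.3%. These shares carry no error and were not tested against each other. The Pold2 probe set is of a kind that breaks a design rule of the array, so its gene is uncertain. At 7 h, Pold2 passed under 7 of 30 alternatives, with adjusted p values from 0.00695 to 0.22 over all of them.

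Pold1, the catalytic subunit of polymerase delta, read 768, 894 and 890.2 before estradiol, 814, 785 and 858 after 3 h, 592, 744 and 683 after 7 h, 607, 759.7 and 726 after 14 h, 393, 453 and 436 after 21 h, and 123, 156 and 120.3 after 30 h. Its 3 arrays at 30 h were close together and far below the others. The change was -0.98 (SE 0.13, adjusted p = 1.06e-05) at 21 h and -2.51 (SE 0.13, adjusted p = 2.48e-11) at 30 h. With the mean of both Pold1 probe sets the 21 h change was -0.25 (adjusted p 0.307). Pola1, the catalytic subunit of the polymerase that starts each new strand, read 305, 363 and 365 before estradiol, 325, 365 and 347 after 3 h, 293, 296 and 254 after 7 h, 173, 277 and 206 after 14 h, 66.6, 132 and 147 after 21 h, and 24.0, 45.3 and 29.9 after 30 h. Its 14 h arrays were all below those at 0 h, without passing (-0.62, SE 0.26, adjusted p = 0.143), and the 30 h change was -2.89 (SE 0.26, adjusted p = 5.06e-08).

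The primase subunits Prim1 and Prim2 fell at 30 h, with log2 changes of -2.50 and -2.47. The 21 h call of Prim1 failed under 14 of 30 alternatives and that of Pole2 under 3. Pole2 and Pold3, accessory subunits of polymerases epsilon and delta, fell as well (-2.17 and -1.01). Prim1 and Pole2 had 30 h means of 16.8 and 9.93, also under 18.4, so their sizes are uncertain too. Pole3, a histone-fold subunit of polymerase epsilon, read 431, 411 and 396 before estradiol, 495, 368 and 393 after 14 h, 537, 289 and 340.2 after 21 h, and 362, 426 and 418 after 30 h, and its arrays at 30 h overlapped those at 0 h (log2 change 0.04, SE 0.18). Pola2, the accessory subunit of polymerase alpha, changed by -0.59 (SE 0.22, adjusted p = 0.0596) at 30 h and was not called, though its F test over time passed (adjusted p = 0.00256). Its 30 h change passed under 8 of 30 alternatives, with adjusted p values from 0.0106 to 0.766 over all of them.

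All 6 members of the clamp and its loader fell at 30 h (median -1.26), and 4 fell at 21 h. Pcna, the clamp itself, read 1651, 1385 and 1206 before estradiol, 1582, 1498 and 1733 after 3 h, 1094, 996 and 1009 after 7 h, 715, 1200.1 and 1046 after 14 h, 150.1, 471 and 434 after 21 h, and 113, 151 and 142 after 30 h. All 21 h and 30 h arrays lay below every array up to 14 h, and array A was the lowest at 21 h. The changes were -0.58 (SE 0.28, adjusted p = 0.225) at 14 h, not called, -2.17 (SE 0.28, adjusted p = 9.45e-06) at 21 h and -3.26 (SE 0.28, adjusted p = 3.23e-08) at 30 h. The 5 loader subunits, which open the clamp around DNA, changed by -0.75 to -2.22 at 30 h. Rfc2 read 1054, 973 and 1018 before estradiol, 1096, 1244 and 1210.2 after 3 h, 1111, 1389 and 1211 after 7 h, 1140.2, 1586 and 1418 after 14 h, 732, 768 and 831 after 21 h, and 484, 503 and 427 after 30 h, so that its 14 h arrays were above and its 21 h and 30 h arrays below all at 0 h. It rose by 0.39 (SE 0.12, adjusted p = 0.0345) at 14 h, a call lost under 7 of 30 alternatives, and at 30 h the change was -1.09 (SE 0.12, adjusted p = 5.9e-07). Rfc4 read 302, 226 and 220.4 before estradiol, 200.5, 285 and 265 after 14 h, 119, 182 and 161 after 21 h, and 32.7, 50.3 and 36.8 after 30 h, with -2.22 (SE 0.23, adjusted p = 3.84e-07) at 30 h. Rfc1, Rfc5 and Rfc3 fell at 30 h with log2 changes of -1.34, -1.18 and -0.75. A second, dimmer Rfc5 probe set changed by 0.44 at 30 h, not called, and with the mean of both the Rfc5 call was lost (log2 change -0.37, adjusted p 0.146). The 21 h call of Rfc1 was lost under 9 of 30 alternatives.

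The 3 subunits of replication protein A, which coats single-stranded DNA, all fell at 30 h, and 2 had fallen at 21 h. Rpa1, the largest, read 1022, 1091 and 1121 before estradiol, 1192, 1199.6 and 1275 after 3 h, 1148, 1309 and 1204 after 7 h, 635, 1303 and 1091 after 14 h, 274, 786 and 694 after 21 h, and 189, 229.5 and 259.5 after 30 h. Array A was the lowest from 14 h on. The change was -1.04 (SE 0.26, adjusted p = 0.0064) at 21 h and -2.17 (SE 0.26, adjusted p = 2.41e-06) at 30 h. Rpa3 read 350.1, 283 and 233 before estradiol, 224, 386 and 389 after 14 h, 138, 269 and 219 after 21 h, and 74.9, 96.9 and 86.3 after 30 h, with -1.48 (SE 0.24, adjusted p = 6.94e-05) at 30 h. Rpa2 fell by 1.15 on the log2 scale at 30 h. The 21 h call of Rpa2 was lost under 7 of 30 alternatives, and that of Rpa1 under 1.

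Of 4 genes that finish lagging-strand fragments or unwind DNA ahead of the fork, 2 were higher at 14 h, 1 was higher at 21 h and 2 were lower at 30 h (median -0.27 at 30 h). Fen1, the nuclease that trims the flap of each fragment, read 418, 496 and 412 before estradiol, 541, 659.5 and 579 after 3 h, 690.5, 604 and 474 after 7 h, 646, 831 and 696 after 14 h, 384, 631 and 606 after 21 h, and 241, 337 and 281 after 30 h. All 14 h arrays were above all at 0 h, and all 30 h arrays below. Its change was 0.73 (SE 0.18, adjusted p = 0.0078) at 14 h and -0.51 (SE 0.18, adjusted p = 0.0373) at 30 h, the latter lost under 8 of 30 alternatives. Rnaseh2a, the catalytic subunit of the RNase H2 enzyme that removes RNA from DNA, read 276, 255 and 268 before estradiol, 244, 273 and 270.2 after 3 h, 299, 251 and 234 after 7 h, 336, 409 and 387 after 14 h, 299.8, 375 and 379 after 21 h, and 208, 269.9 and 246 after 30 h. It rose from 7 h to 14 h by 0.55 (SE 0.14, adjusted p = 0.0364), a call lost under 9 of 30 alternatives, among them without the 7 h array B or C or any 14 h array. Against 0 h it was higher by 0.52 (SE 0.14, adjusted p = 0.0129) at 14 h and 0.44 (SE 0.14, adjusted p = 0.0258) at 21 h. The calls against 0 h were lost under 3 and 7 of 30 alternatives. At 30 h it differed from 0 h by -0.03 (SE 0.14), the single case among members called at an earlier time that was not called lower at 30 h.

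Lig1, the ligase that seals the fragments, read 469, 588 and 651 before estradiol, 612, 751 and 622 after 14 h, 377, 539 and 622 after 21 h, and 162, 303 and 267 after 30 h, and its fall was called at 30 h alone (-1.12, SE 0.20, adjusted p = 0.000158). Top1, the topoisomerase that relieves twist ahead of the fork and also serves transcription, read 1172, 1365 and 1029 before estradiol, 1433, 2092 and 1704 after 14 h, 1122, 2063 and 1488 after 21 h, and 1748, 1591 and 1633 after 30 h. Its 30 h arrays were all above those at 0 h, but the change of 0.31 (SE 0.17, adjusted p = 0.212) did not pass. At 14 h Top1 was not called, and passed, higher, under 5 of 30 alternatives.

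All 3 measured genes of nucleotide supply fell at 30 h (median -2.66), and 2 had fallen at 21 h. Rrm2, the small subunit of ribonucleotide reductase, which makes deoxyribonucleotides, had the largest log2 fall of the 46 and read 1148, 1270.0 and 1283 before estradiol, 1471, 1532 and 1875 after 3 h, 1731, 1556 and 1279.5 after 7 h, 999, 1825 and 1652 after 14 h, 270.5, 649.6 and 796 after 21 h, and 35.3, 89.9 and 109 after 30 h. Array A at 14 h was the lowest of the arrays up to that time, and all 21 h and 30 h arrays lay below it. The change was -1.29 (SE 0.33, adjusted p = 0.00691) at 21 h and -3.88 (SE 0.33, adjusted p = 2.3e-08), a 14.7-fold fall, at 30 h. Without the 21 h array A the 21 h change was -0.88 and was not called (adjusted p 0.0546). Tk1, the thymidine kinase of dividing cells, read 941, 944 and 795 before estradiol, 519, 1079 and 1004 after 14 h, 482, 596 and 352 after 21 h, and 117, 142 and 118 after 30 h, changing by -0.93 (SE 0.22, adjusted p = 0.00373) and -2.66 (SE 0.22, adjusted p = 1.45e-08). Its 21 h call was lost with the mean of both Tk1 probe sets (log2 change -0.50, adjusted p 0.28). Rrm1, the large reductase subunit, read 1339.6, 1724 and 1728 before estradiol, 1488, 2240.5 and 2184 after 14 h, 541, 1430.2 and 1341 after 21 h, and 145, 299.6 and 337 after 30 h. It was not called at 21 h (-0.78, SE 0.28, adjusted p = 0.0545), where array A read 541.0, and changed by -2.64 (SE 0.28, adjusted p = 4.21e-07) at 30 h. The 21 h change of Rrm1 passed under 8 of 30 alternatives, with adjusted p values from 0.0071 to 0.347 over all of them.

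Chaf1a and Chaf1b, subunits of the factor that places histones on new DNA, were called at 30 h only. Chaf1b read 174, 133 and 168 before estradiol, 199, 167 and 173 after 14 h, 84.9, 78.0 and 108 after 21 h, and 78.8, 11.6 and 49.9 after 30 h, with a change of -1.57 (SE 0.30, adjusted p = 0.000426). Chaf1a read 179.8, 175 and 315 before estradiol, 224, 283 and 211 after 14 h, 209, 205 and 204 after 21 h, and 117, 102 and 154 after 30 h, and its change of -0.63 (SE 0.20, adjusted p = 0.0235) was lost under 5 of 30 alternatives, most clearly without the 0 h array C (log2 change -0.36, adjusted p 0.183).

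The F test over the 6 times passed for 39 of the 46 members, where 27.2% of all probe sets passed. The 7 that did not pass were Orc2, Orc4, Mcm6, Dbf4, Gins2, Pole3 and Top1. Of these, Mcm6 and Dbf4 had mean signals in the lowest 33.3% of the array. For 13 members a further 14 probe sets existed, and at 30 h 2 of them fell, 1 rose and 11 were not called. Of all probe sets, 13.8% were called lower and 12.8% higher at 30 h. The 2 that fell were those of Cdt1 and Mcm3. Of members that fell, Orc5, Pold1, Rfc1, Rfc5, Lig1, Rrm1 and Tk1 had a second probe set that was not called. Its 30 h log2 changes were, in that order, 0.10, 0.25, -0.63, 0.44, -0.25, -0.16 and -0.83. The mean of 3 of the 14 was in the lowest 33.3%.

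A second list held 29 further genes of replication, its checkpoints and its chromatin, of which 18 were measured. By limma, 0 were called at 3 h and 7 h, where 0 and 5 had an unadjusted p under 0.05. There were 5 calls at 14 h (2 higher and 3 lower), 14 at 21 h (2 and 12) and 16 at 30 h (2 and 14), with a median of -1.68 at 30 h. These were 27.8%, 77.8% and 88.9% of the list, against 13.3%, 20.7% and 26.7% of all probe sets. The 4 genes of this list with the smallest F test p were Rbbp7, Uhrf1, Dnmt1 and Tipin. Rbbp7, a histone-binding protein, had means of 2237, 847 and 352 at 0, 14 and 30 h, and like Pold2 it had fallen at 14 h (-1.49, SE 0.15, adjusted p = 1.31e-06). Uhrf1, which brings the maintenance DNA methyltransferase Dnmt1 to new DNA, fell at 14, 21 and 30 h, with log2 changes of -0.94, -2.62 and -4.09. Dnmt1 fell at 21 h and 30 h (-0.76 and -2.08). Tipin, of the complex that stabilizes stalled forks, fell at 21 h and 30 h (-1.50 and -2.26). The 2 that rose at 30 h were Rnaseh2c (0.82, SE 0.20, adjusted p = 0.00368), the partner subunit of Rnaseh2a, and Pold4 (1.03, SE 0.20, adjusted p = 0.000498), the smallest subunit of polymerase delta.

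Genes of mitosis, the later phase of the same cycle, were measured for 28 of 31 listed. They were called higher in 3 cases at 7 h and 10 at 14 h, in 4 higher and 4 lower at 21 h, and in 25, all lower, at 30 h. Of all probe sets, 2.48% and 6.55% were called higher at 7 h and 14 h, and 13.8% lower at 30 h. At 21 h, 28.6% of the mitosis genes were called, against 20.7% of all probe sets (9.75% higher and 10.9% lower). The median of the mitosis genes was 0.49 at 14 h, 0.13 at 21 h and -1.73 at 30 h. From 14 h to 21 h, 0 of the 28 were called by limma (10 had an unadjusted p under 0.05, all lower). In that step 15 of 46 replication genes and 1.38% of all probe sets fell. From 21 h to 30 h, 27 of the 28 mitosis genes fell, where 3.12% of all probe sets did. The difference between the lists was not tested. Plk1, a mitotic kinase, had means of 565, 958, 774 and 194 at 0, 14, 21 and 30 h, and at 21 h it was still above 0 h (0.44, SE 0.14, adjusted p = 0.0255). Kif20a, a motor of cell division, and Cdc20, the activator of the anaphase ligase, had 21 h changes of 0.15 and 0.02, not called, and both fell at 30 h (-2.98 and -2.17). Cdk1, the kinase that drives entry into mitosis, had fallen at 21 h (-1.15, SE 0.30, adjusted p = 0.00937) and changed by -4.08 at 30 h.

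**Figure D4:**
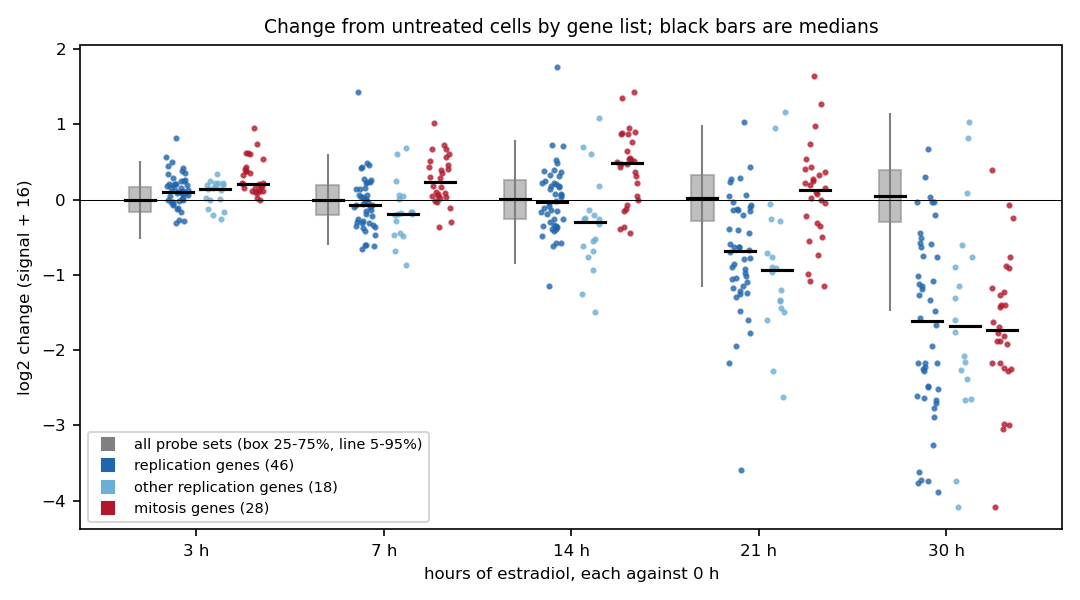
Log2 change in signal + 16 from 0 h (y axis) at 3, 7, 14, 21 and 30 h (x axis) for 46 replication genes, 18 other replication genes and 28 mitosis genes. Points are genes, black bars medians, and grey boxes the quartiles of all probe sets, with lines to the outer 5% on each side. At 21 h the replication median is -0.68 and the mitosis median 0.13, and at 30 h they are -1.62 and -1.73.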

How the data were processed

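Total RNA of 18 samples, 3 at each of 6 times, was read on 18 arrays of 12488 probe sets. The authors deposited 1 signal intensity for each probe set and array, on a linear scale. The summary algorithm, the scaling target and detection calls are not given in the sources used here. Probe sets were named from the platform annotation, and 66 controls were left out. A gene was read by the probe set with the highest mean among those with exactly 1 symbol. After adding 16 and taking log2, arrays were quantile normalized, and limma 3.58.1 in R 4.3.3 fitted 1 mean for each time (12 residual degrees of freedom, eBayes with an intensity trend). The script was tested on simulated data. The number of arrays limits the precision. Members, lists and tests were chosen with earlier results of these data known.

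Signals on every array were given for the 1 to 3 members of a role with the smallest F test p, for members called at 3 h or 7 h, and for members called higher. Others were shown where a value in the text turned on them. From the other lists, the 4 genes with the smallest F test p were named, and Rnaseh2c and Pold4 after their values were seen. The alternatives were no further normalization, a common median, an added 1 or 64, the lowest 33.3% of probe sets left out, no trend, array weights, a replicate block, plain _at probe sets, the mean of a gene's probe sets, the compared times alone and each array left out. Promoter windows and their sequences came from RefSeq, build GRCm38.p6.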

Additional observations from a re-analysis of the deposited data

How the results depend on the processing

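Of 299 recomputed counts of called members, 260 lay within 1.5 times the reported count. Of 6880 recomputed changes of single members, 6736 kept their direction and side of the threshold or were called in neither fit, 104 lost the call, 40 gained it and 0 reversed. Only calls of the main fit could be lost, which were 1, 1, 5, 28 and 37 members at 3, 7, 14, 21 and 30 h. The 104 should therefore not be read against all 6880. Most of these losses were at 21 h. Values as deposited called 0 members from 7 h to 14 h. Scaling to a common median called 2 at 14 h, 0 from 3 h to 7 h, 0 from 7 h to 14 h and 5 from 14 h to 21 h. The constant of 64, the lowest 33.3% of probe sets left out and array weights each called 2 at 7 h and 2 from 3 h to 7 h, and the mean over a gene's probe sets 2 at 7 h. Without the intensity trend 0 were called from 3 h to 7 h, 0 from 7 h to 14 h and 9 from 14 h to 21 h. The compared times alone gave 0, 0, 5 and, from 21 h to 30 h, 15. With the late arrays of letter A left out, 2 were called at 3 h, 3 at 7 h and 3 from 3 h to 7 h. The last 2 fits used fewer arrays, and the cause of these differences was not tested.

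With each array left out in turn, counts ranged from 1 to 2 at 7 h, 3 to 9 at 14 h, 21 to 29 at 21 h, 33 to 38 at 30 h, 0 to 2 from 3 h to 7 h, 0 to 1 from 7 h to 14 h, 8 to 19 from 14 h to 21 h and 19 to 29 from 21 h to 30 h. The 14 h count was 3 without the 0 h array B or the 14 h array B and 9 without the 21 h array A. The count from 3 h to 7 h was 0 without the 3 h array A or the 7 h array B. From 7 h to 14 h it was 0 without the 7 h array B or C or any 14 h array. Without the 14 h array A or C, 2 were called at 7 h and 2 from 3 h to 7 h.

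Whether the replicate letters pair the arrays is not stated in the labels. Over 45 pairs of arrays with 1 letter, the correlation of deviations from the time means ran from -0.09 to 0.21. The median was 0.027, and 3 pairs were over 0.1. Over 90 pairs with different letters it ran from -0.15 to 0.07, with a median of -0.008, and 0 pairs were over 0.1. This difference was not tested. The replicate block called 1 member at 3 h, 1 at 7 h, 6 at 14 h, 29 at 21 h, 39 at 30 h, 21 from 14 h to 21 h and 28 from 21 h to 30 h. Of the 39 at 30 h, Orc2 was called higher (log2 change 0.68, limma adjusted p = 0.047). Signal over background limits Mcm6, Dbf4 and Gins2, and also Cdc7, Mcm10, Prim1 and Pole2 at 30 h.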
